A study of Mus musculus with 8 samples.

Results

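RNA levels of 10 genes of the vascular endothelial growth factor (VEGF) and angiopoietin families were followed in cultured mouse bone marrow mesenchymal stem/stromal cells (MSCs). The genes were taken by symbol from the deposited table, as 10 of its 24346 genes: the VEGF ligands *Vegfa*, *Vegfb*, *Vegfc* and *Pgf*, the VEGF receptors *Flt1* and *Kdr*, the angiopoietin *Angpt2*, and the angiopoietin-like genes *Angptl1*, *Angptl2* and *Angptl4*. All 10 were above 0 in every library and passed the filter on low values, which 15342 genes passed. The study sequenced RNA of wild type (WT) MSCs and of *Dnmt3l* knockout (KO) MSCs in 2 states: undifferentiated, and differentiating after 3 days of osteogenic induction. DNMT3L is a cofactor of the de novo DNA methyltransferases. Each of the 4 groups had 2 libraries, all from C57BL/6 cells at passage 4.

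KO mice carried the Dnmt3l tmEnls allele in all their cells, and the controls were Dnmt3l +/+ littermates. The methods describe MSCs of adult mice, mixed from 3 animals per genotype and depleted of CD11b and CD45 positive cells. Growth medium held 20% fetal bovine serum, whereas the induction medium held 10% with dexamethasone (a glucocorticoid), beta-glycerophosphate and ascorbic acid 2-phosphate. The methods describe induction of confluent cells and do not give the density of undifferentiated cells at harvest. Induction therefore cannot be told apart from the change of serum, or from any difference in density or time in culture. Nothing in the labels tells if replicate libraries were separate cultures, so the p-values measure only the spread between these libraries, which may be technical.

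VEGF ligands are secreted dimers that act on receptor tyrosine kinases of endothelial cells. VEGFA drives the growth of blood vessels through KDR (VEGFR2), while FLT1 (VEGFR1) binds VEGFA, VEGFB and placental growth factor and can act as a decoy. VEGFC and VEGFD act mainly on FLT4 (VEGFR3) and on lymphatic vessels. ANGPT1 activates the TEK (TIE2) receptor and steadies vessels, and ANGPT2 often opposes it. The angiopoietin-like proteins share the domain structure of angiopoietins but do not bind TEK; ANGPTL4 inhibits lipoprotein lipase and its gene is a known target of glucocorticoids and of PPAR factors. In bone, VEGFA from stromal cells and osteoblasts couples vessel growth to bone formation.

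Promoter sequence was found in the RefSeq table (GRCm38.p6, the mm10 build of the files) for 8 of the 10 genes. *Angpt2* and *Angptl4* had no entry. For 2 genes that fell with induction, *Vegfa* and *Angptl2*, and 2 that rose, *Vegfc* and *Flt1*, the 120 bases before the annotated start are shown 5′ to 3′ on the gene's strand. Capitals mark GC boxes (GGGCGG on either strand, the motif of SP1-type factors) and the TATA box (TATAAA on either strand); no 2 of the marked motifs overlapped.
*Vegfa*, chr17:46032378-46032497, minus strand: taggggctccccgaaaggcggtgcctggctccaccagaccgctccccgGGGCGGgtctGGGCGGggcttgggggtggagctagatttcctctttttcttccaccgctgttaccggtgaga
*Angptl2*, chr2:33215841-33215960, plus strand: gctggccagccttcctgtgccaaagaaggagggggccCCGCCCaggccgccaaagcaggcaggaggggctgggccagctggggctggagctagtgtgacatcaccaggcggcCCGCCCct
*Vegfc*, chr8:54077412-54077531, plus strand: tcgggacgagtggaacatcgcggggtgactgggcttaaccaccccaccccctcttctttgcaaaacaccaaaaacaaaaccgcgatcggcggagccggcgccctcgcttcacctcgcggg
*Flt1*, chr5:147726012-147726131, minus strand: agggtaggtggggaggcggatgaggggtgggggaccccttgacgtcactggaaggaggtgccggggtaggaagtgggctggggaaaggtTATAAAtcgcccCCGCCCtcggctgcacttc

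Over the full window of 300 bases, from 250 before to 50 after the start, a GC box was found in 7 of the 8 genes, all but *Angptl1*, and in 35.7% of the 32851 promoters of the table. *Flt1* alone of the 8 had a TATA box, which 13.6% of all promoters had. The core of the hypoxia response element (ACGTG, either strand) was in none of the 8 windows and in 19.6% of all promoters, and the glucocorticoid receptor hexamer (AGAACA, either strand) was in none and in 19.0%. These counts describe letters in a short window and say nothing of sites elsewhere. CpG dinucleotides, the substrate of the DNA methyltransferases, numbered 16 in *Vegfa*, 31 in *Vegfb*, 35 in *Vegfc*, 23 in *Pgf*, 29 in *Flt1*, 19 in *Kdr*, 9 in *Angptl2* and 6 in *Angptl1*. Their median over all promoters was 7, so that all but *Angptl1* lay above it. GC content ran from 54.3% in *Angptl1* to 75.3% in *Vegfb*. Genes that fell and genes that rose with induction both had windows with GC boxes, and methylation was not measured in the data used here.

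In the GENCODE annotation of GRCm38 *Vegfa* lies at chr17:46016993-46032369 and *Angptl4* on the same chromosome at chr17:33773750-33781830. *Flt1* (chr5:147561604-147726011) and *Kdr* (chr5:75932827-75978458) share chromosome 5, and *Vegfc* (chr8:54077606-54187096) and *Angpt2* (chr8:18690263-18741562) share chromosome 8. *Angptl1* (chr1:156838562-156861078) shares 465 nt of exon with *Gm37802* on the opposite strand; the libraries were stranded and the methods describe an alignment that kept strand, but whether strand was used when reads were assigned to genes is not given in the sources used here, and *Angptl1* values are uncertain to that extent. *Angpt2* overlaps *Mcph1* and *Angptl2* (chr2:33216069-33247717) overlaps *Ralgps1* on the opposite strand, with no shared exon. *Vegfb* (chr19:6982473-6987651) and *Pgf* (chr12:85166635-85177790) overlap no other annotated gene.

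The values are RPKM, reads scaled to transcript length and library depth, so levels of different genes can be compared. From the smallest steps of low values the libraries held about 47.7 to 66.5 M scaled reads. Replicate libraries differed by a median of 0.0607 to 0.111 on the log2 scale over genes, most in differentiating KO MSCs. *Dnmt3l* was at 1.56 and 1.09 RPKM in undifferentiated WT MSCs and at 0.845 and 0.830 RPKM in differentiating WT MSCs. It was listed at 0 in the 4 KO libraries, which matched the labels. The paper reports that the WT reads covered only the later exons of the gene. It detected no canonical DNMT3L protein in cultured MSCs, so these RPKM do not show that the full gene product was present. All 8 listed stromal markers were present in every library, with a summed level of 733 to 3406 RPKM. Most of that sum was *Ly6a* (471 to 2603 RPKM), while *Lepr* was at 1.14 to 2.96 RPKM. Of 8 endothelial markers 6 stayed under 0.3 RPKM in every library, among them the defining *Pecam1* (at most 0.0843 RPKM) and *Cdh5* (at most 0.0267 RPKM), and *Robo4* was listed at 0 throughout.

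The 10 genes spanned more than 3 orders of magnitude, from *Angptl2* with a mean of 167 ± 2.71 RPKM (SD, n = 2) to *Kdr* with 0.0718 ± 0.0139 RPKM (SD, n = 2) in undifferentiated WT MSCs. *Angptl2* had the highest level of the 10 in all 4 groups. *Vegfa* came next in both undifferentiated groups, and *Angptl4* took that place in both differentiating groups. *Flt1* and *Kdr* had the lowest levels in every group. Neighbours in this order whose libraries overlapped were *Pgf* and *Angptl1* in differentiating WT MSCs, *Flt1* and *Kdr* in undifferentiated KO MSCs, and in differentiating KO MSCs both *Vegfc* with *Vegfa* and *Angpt2* with *Vegfb*.

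**Figure D1:**
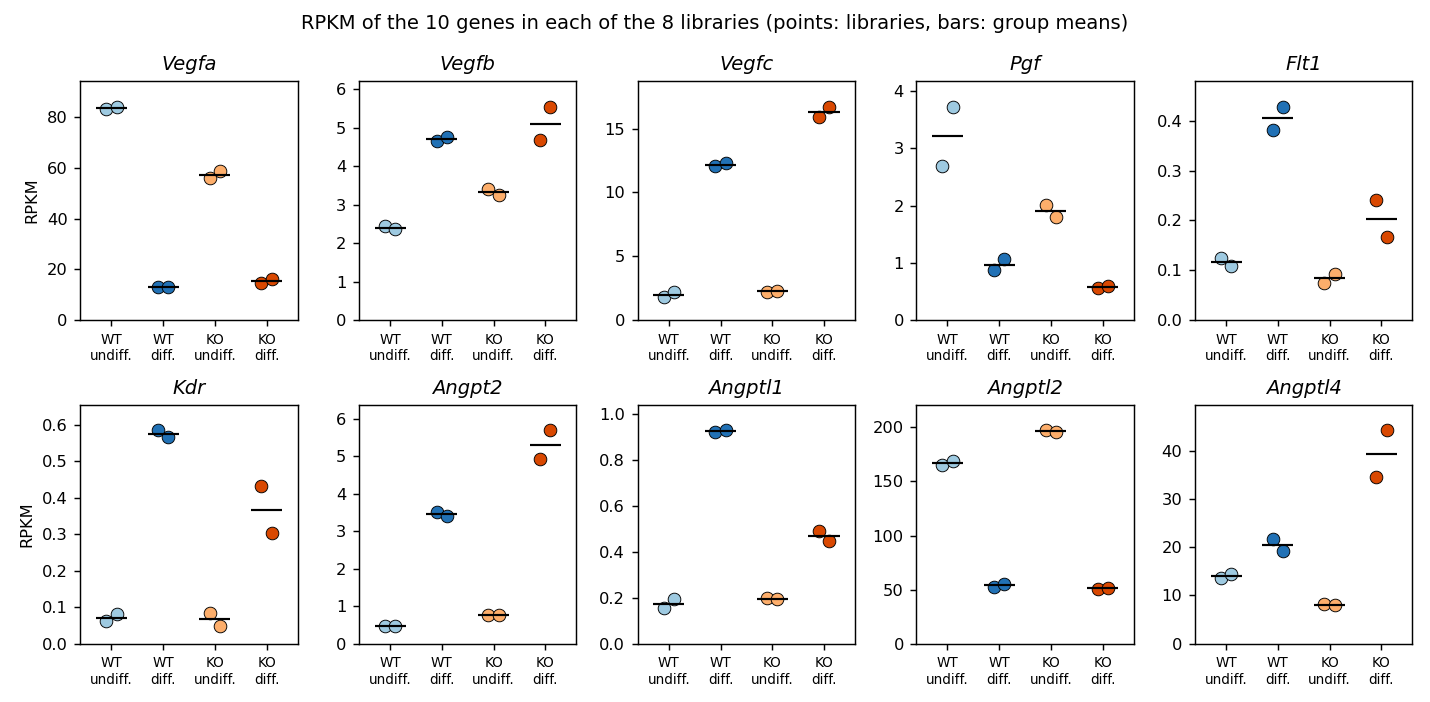
RPKM of each of the 10 genes (vertical axis, linear from 0, a scale per gene) in undifferentiated (undiff.) and differentiating (diff.) WT and *Dnmt3l* KO MSCs; points are the 8 libraries and bars the means of the 2 libraries of a group. *Vegfa*, *Pgf* and *Angptl2* are lower in the differentiating libraries of both genotypes and the other 7 genes are higher, and *Angptl4* spans from 7.94 RPKM in an undifferentiated KO library to 44.2 RPKM in a differentiating KO library.

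Levels of all 10 genes changed with osteogenic induction in both genotypes. With log2(RPKM + 0.1) as the scale and limma with Benjamini-Hochberg adjustment over all tested genes as the test, all 10 passed an adjusted p of 0.05 in both genotypes, 7 higher and 3 lower. In WT MSCs 31.6% of all genes were called higher and 32.8% lower by this rule, and in KO MSCs 36.4% and 36.6%, so that a call alone was frequent. Under the added limit of an absolute log2 fold change above 1, 5 of the 10 rose and 3 fell in WT MSCs, where 9.69% of all genes rose and 4.63% fell. In KO MSCs 4 rose and 3 fell past both limits, against 13.0% and 9.87% of all genes. The median log2 fold change of the 10 genes was 1.08 in WT and 0.83 in KO MSCs, where that of all genes was within 0.001 of 0.

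*Vegfa*, the main angiogenic ligand, was at 83.2 and 84.2 RPKM in undifferentiated WT MSCs and at 12.9 and 13.0 RPKM after induction. In KO MSCs it was at 56.1 and 58.6 RPKM before and at 14.6 and 16.2 RPKM after induction. The undifferentiated libraries of both genotypes lay far above the differentiating ones, with no overlap. The mean was 6.46-fold lower after induction in WT MSCs (log2 fold change −2.68, SE 0.05, limma adjusted p = 7.56e-07) and 3.72-fold lower in KO MSCs (−1.89, SE 0.05, limma adjusted p = 1.16e-06).

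*Vegfc*, the ligand of lymphatic growth, moved the other way. It was at 1.79 and 2.16 RPKM in undifferentiated and 12.0 and 12.3 RPKM in differentiating WT MSCs, a 6.15-fold higher mean (log2 fold change 2.57, SE 0.08, limma adjusted p = 3.65e-06). KO libraries went from 2.22 and 2.26 RPKM to 15.9 and 16.7 RPKM, a 7.28-fold higher mean (2.81, SE 0.08, limma adjusted p = 1.47e-06). Again the states did not overlap in either genotype.

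*Vegfb*, a ligand of FLT1, rose to a smaller degree. Its WT libraries were at 2.44 and 2.36 RPKM before and at 4.66 and 4.75 RPKM after induction (log2 fold change 0.94, SE 0.08, limma adjusted p = 0.000169). In KO MSCs the values were 3.39 and 3.26 RPKM before and 4.67 and 5.55 RPKM after (0.60, SE 0.08, limma adjusted p = 0.000834). Both increases lay under the 2-fold limit, and neither had overlapping libraries.

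*Pgf*, placental growth factor, fell together with *Vegfa*. It was at 2.70 and 3.73 RPKM in undifferentiated WT MSCs, the widest replicate spread among the VEGF ligands there, and at 0.880 and 1.06 RPKM after induction (log2 fold change −1.62, SE 0.17, limma adjusted p = 0.000319). In KO MSCs it went from 2.01 and 1.80 RPKM to 0.560 and 0.588 RPKM (−1.57, SE 0.17, limma adjusted p = 0.000231). The difference between states exceeded the spread of replicates in both genotypes.

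Because *Vegfa* fell while *Vegfc* and *Vegfb* rose, the composition of the ligand RNA changed. Among the 4 ligand genes *Vegfa* held 91.7% ± 0.874 (SD, n = 2) of the summed RPKM in undifferentiated WT MSCs and 42.1% ± 0.406 (SD, n = 2) after induction. *Vegfc* went from 2.16% ± 0.245 to 39.5% ± 0.0276 (SD, n = 2 each) in the same libraries. In KO MSCs *Vegfa* went from 88.5% ± 0.620 to 41.2% ± 0.421 and *Vegfc* from 3.46% ± 0.0466 to 43.6% ± 1.18 (SD, n = 2 each). The summed RPKM of the 4 genes was 91.3 in undifferentiated and 30.8 in differentiating WT MSCs, and 64.8 before and 37.4 after induction in KO MSCs.

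The shift was larger once *Vegfd*, a further lymphatic ligand outside the 10 genes, was counted. *Vegfd* (listed as Figf) was at 7.88 and 8.33 RPKM in undifferentiated and 179 and 161 RPKM in differentiating WT MSCs, and at 12.7 and 13.4 RPKM and 262 and 284 RPKM in the KO groups. Its log2 fold change with induction was 4.37 (SE 0.07, limma adjusted p = 5.04e-07) in WT and 4.38 (SE 0.07, limma adjusted p = 2.16e-07) in KO MSCs. With it, *Vegfa* made up 84.2% of the summed RPKM of 5 ligand genes in undifferentiated and 6.46% in differentiating WT MSCs, while *Vegfd* made up 8.15% and 84.6%. In KO MSCs the share of *Vegfa* was 73.7% before and 4.97% after induction, and that of *Vegfd* 16.7% and 87.9%. The sum of the 5 genes was 99.4 RPKM before and 201 RPKM after induction in WT, and 77.9 and 310.5 RPKM in KO MSCs, so that the direction of the total depended on whether *Vegfd* was included.

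**Figure D2:**
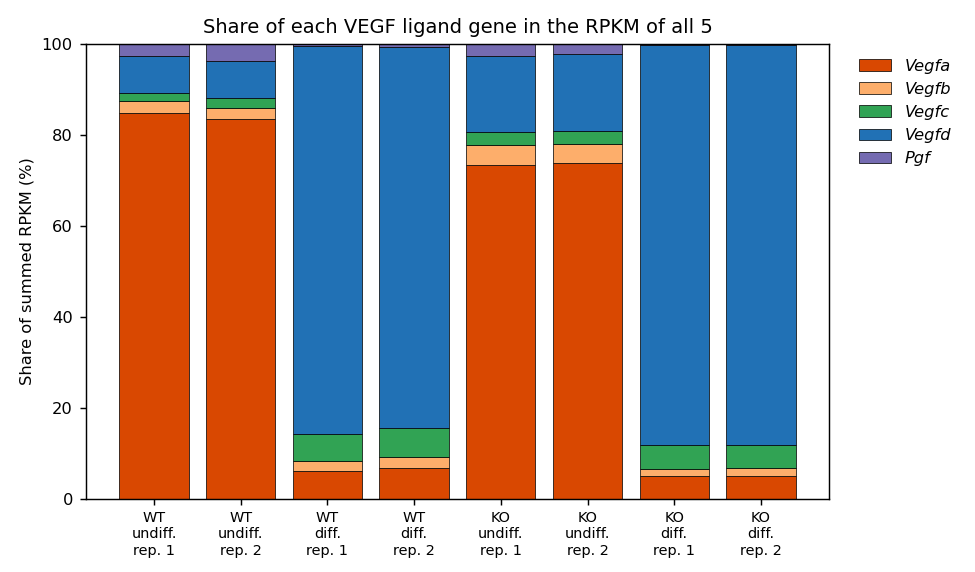
Share of each VEGF ligand gene in the summed RPKM of *Vegfa*, *Vegfb*, *Vegfc*, *Vegfd* and *Pgf* (vertical axis, percent) for each of the 8 libraries of undifferentiated (undiff.) and differentiating (diff.) WT and KO MSCs. *Vegfa* holds most of the sum in the 4 undifferentiated libraries (73.4% to 84.9%) and *Vegfd* in the 4 differentiating libraries (83.8% to 88.0%).

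The receptor genes *Flt1* and *Kdr* were near the lower end of detection. *Flt1* was at 0.124 and 0.109 RPKM in undifferentiated and 0.382 and 0.428 RPKM in differentiating WT MSCs, and at 0.0750 and 0.0928 RPKM and 0.242 and 0.166 RPKM in the KO groups. Its log2 fold change with induction was 1.22 (SE 0.18, limma adjusted p = 0.00158) in WT and 0.71 (SE 0.18, limma adjusted p = 0.0124) in KO MSCs. The states did not overlap in either genotype, but the KO call was lost without replicate 1 of undifferentiated KO MSCs (limma adjusted p = 0.0528) and after quantile normalization (0.105).

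*Kdr*, the main signalling receptor for VEGFA, was at 0.0620 and 0.0816 RPKM in undifferentiated and 0.584 and 0.566 RPKM in differentiating WT MSCs. KO libraries were at 0.0829 and 0.0499 RPKM before and at 0.431 and 0.304 RPKM after induction. Both genotypes thus had higher values in every differentiating library (WT log2 fold change 1.98, SE 0.20, limma adjusted p = 0.000281; KO 1.48, SE 0.20, limma adjusted p = 0.000671). The values stood for about 14 to 223 reads of *Kdr* and 24 to 170 reads of *Flt1* per library, and 3 reads would have given at most 0.011 RPKM, a floor that covers counting error only. The pseudocount weighs on such low values, and the WT log2 fold change of *Kdr* ran from 0.56 with a pseudocount of 1 to 2.85 with 0.01. The summed level of the 8 endothelial markers was 2.94 to 3.57 RPKM in undifferentiated WT, 2.1 to 2.3 in differentiating WT, 3.69 to 3.85 in undifferentiated KO and 1.76 to 1.96 in differentiating KO MSCs, carried by *Egfl7* and *Esam*. Low members of that list went the other way: *Vwf* was at 0.0316 to 0.0495 RPKM before and 0.0990 to 0.119 RPKM after induction in WT, and at 0.0187 to 0.0456 and 0.129 to 0.206 RPKM in KO MSCs, and *Emcn* and *Pecam1* were higher after induction in WT libraries without overlap. These genes were under the filter and had no test, and the part of endothelial cells in the *Flt1* and *Kdr* values was not tested. In bulk RNA fewer cells of a type and less RNA per cell cannot be told apart.

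*Angpt2*, which often opposes ANGPT1 on the TEK receptor, rose about as much as *Vegfc*. It was at 0.473 and 0.476 RPKM in undifferentiated and 3.52 and 3.40 RPKM in differentiating WT MSCs, and at 0.766 and 0.756 RPKM and 4.93 and 5.70 RPKM in the KO groups. Every differentiating library was above every undifferentiated one. The mean was 7.30-fold higher in WT (log2 fold change 2.63, SE 0.08, limma adjusted p = 3.15e-06) and 6.98-fold higher in KO MSCs (2.65, SE 0.08, limma adjusted p = 1.59e-06).

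The 3 angiopoietin-like genes differed in direction and size. *Angptl2*, a secreted factor with roles in inflammation, was at 165 and 169 RPKM in undifferentiated and 52.8 and 55.4 RPKM in differentiating WT MSCs, and at 197 and 195 RPKM and 51.0 and 51.1 RPKM in the KO groups. It fell with a log2 fold change of −1.63 (SE 0.03, limma adjusted p = 8.67e-07) in WT and −1.94 (SE 0.03, limma adjusted p = 2.73e-07) in KO MSCs. These were the smallest standard errors among the 10 genes.

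*Angptl1* rose from 0.153 and 0.196 RPKM to 0.921 and 0.928 RPKM in WT MSCs (log2 fold change 1.90, SE 0.13, limma adjusted p = 5.09e-05). In KO MSCs it went from 0.198 and 0.193 RPKM to 0.489 and 0.447 RPKM (0.94, SE 0.13, limma adjusted p = 0.000687). The KO libraries after induction lay between the undifferentiated and the differentiating WT libraries.

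*Angptl4*, the lipoprotein lipase inhibitor, was at 13.5 and 14.4 RPKM in undifferentiated and 21.6 and 19.3 RPKM in differentiating WT MSCs. KO libraries were at 8.26 and 7.94 RPKM before and at 34.5 and 44.2 RPKM after induction. The KO libraries were therefore below WT before induction and above WT after it, with no overlap in either state. The mean was 1.46-fold higher after induction in WT (log2 fold change 0.55, SE 0.12, limma adjusted p = 0.008) and 4.86-fold higher in KO MSCs (2.26, SE 0.12, limma adjusted p = 1.14e-05). Without replicate 1 of differentiating WT MSCs the WT increase no longer passed (log2 fold change 0.46, limma adjusted p = 0.0507).

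**Figure D3:**
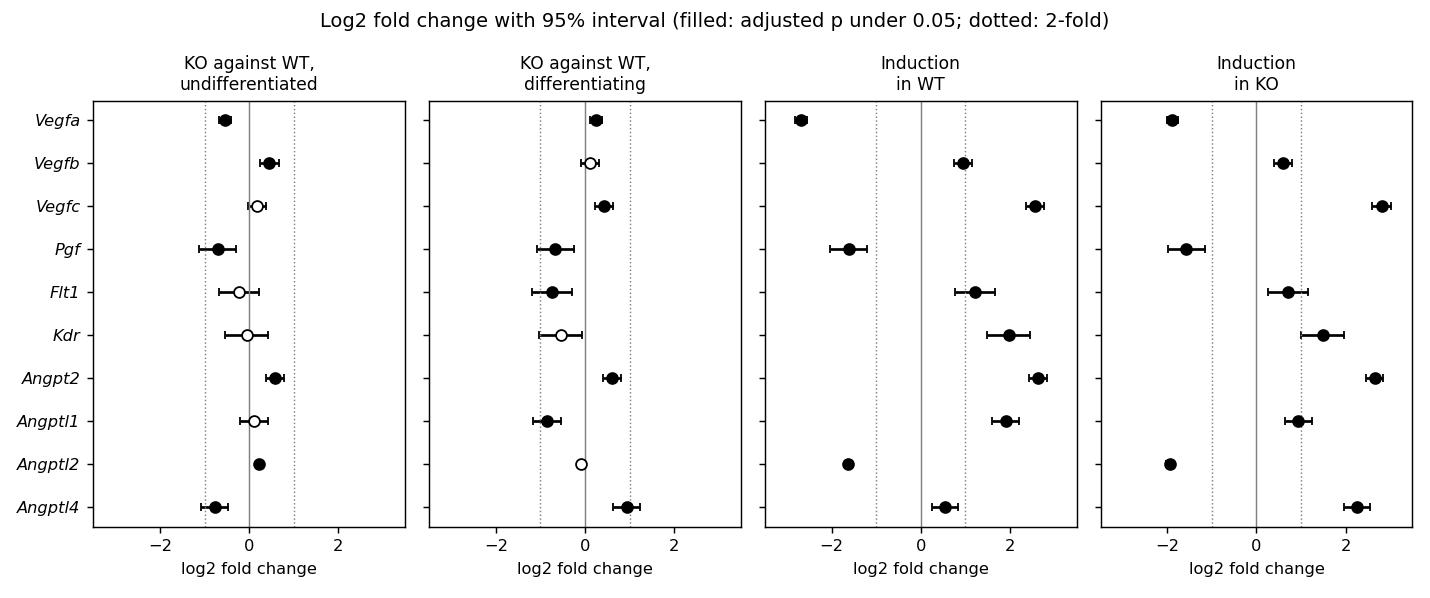
Log2 fold change of the 10 genes (horizontal axes, on log2(RPKM + 0.1)) in the 4 comparisons, from the limma fit to all 8 libraries; points are estimates, bars 95% intervals, filled points have an adjusted p under 0.05, and dotted lines mark 2-fold. All 10 points are filled in both induction panels and lie between −2.68 and 2.81, while the points of the genotype panels lie between −0.85 and 0.93.

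Between genotypes, no difference of the 10 genes passed 2-fold together with the adjusted p. In undifferentiated MSCs 6 of the 10 genes passed an adjusted p of 0.05, 3 higher in KO (*Vegfb*, *Angpt2*, *Angptl2*) and 3 lower (*Vegfa*, *Pgf*, *Angptl4*), where 14.7% of all genes were called higher and 17.5% lower. The 2-fold limit was passed as well by 0.613% of all genes upwards and 1.09% downwards. *Angptl4* had the largest difference of the 10, with a mean 1.72-fold lower in KO (log2 fold change −0.78, SE 0.12, limma adjusted p = 0.00621), followed by *Pgf* (−0.71, SE 0.17, limma adjusted p = 0.0237), *Angpt2* (0.58, SE 0.08, limma adjusted p = 0.0046) and *Vegfa* (−0.54, SE 0.05, limma adjusted p = 0.00148). *Vegfb* was 1.39-fold (0.45, SE 0.08, limma adjusted p = 0.0109) and *Angptl2* 1.17-fold higher (0.23, SE 0.03, limma adjusted p = 0.00505). The *Vegfb* and *Pgf* calls were lost without replicate 2 of undifferentiated WT MSCs or without either undifferentiated KO library, with adjusted p up to 0.0664 and 0.12.

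*Vegfc*, *Angptl1*, *Flt1* and *Kdr* did not pass in undifferentiated MSCs. Their log2 fold changes and 95% intervals were 0.18 (−0.03 to 0.38) for *Vegfc*, 0.11 (−0.20 to 0.42) for *Angptl1*, −0.24 (−0.68 to 0.21) for *Flt1* and −0.05 (−0.53 to 0.43) for *Kdr*. *Vegfc* passed when replicate 2 of undifferentiated WT MSCs was left out (log2 fold change 0.31, limma adjusted p = 0.0288). WT and KO libraries overlapped for *Angptl1* and *Kdr*.

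In differentiating MSCs 7 of the 10 genes passed, 4 higher in KO (*Angptl4*, *Angpt2*, *Vegfc*, *Vegfa*) and 3 lower (*Angptl1*, *Flt1*, *Pgf*), where 17.8% of all genes were called higher and 22.9% lower. Again none of the 10 reached 2-fold with it, which 1.36% of all genes did upwards and 1.95% downwards. *Angptl4* had a mean 1.92-fold higher in KO (log2 fold change 0.93, SE 0.12, limma adjusted p = 0.00279) and passed the 2-fold limit without replicate 1 of differentiating KO MSCs (1.11) or replicate 1 of differentiating WT MSCs (1.015). *Angptl1* was 1.98-fold lower (−0.85, SE 0.13, limma adjusted p = 0.00424) and *Angpt2* 1.53-fold higher (0.60, SE 0.08, limma adjusted p = 0.0033).

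The other differences in this state rested on less. *Flt1* was lower in KO (log2 fold change −0.74, SE 0.18, limma adjusted p = 0.0216), as was *Pgf* (−0.66, SE 0.17, limma adjusted p = 0.0236), whereas *Vegfc* (0.42, SE 0.08, limma adjusted p = 0.0112) and *Vegfa* (0.25, SE 0.05, limma adjusted p = 0.0131) were higher. *Vegfa* did not pass without either differentiating WT library (adjusted p up to 0.0667), nor *Vegfc* and *Flt1* without either of these or replicate 2 of differentiating KO MSCs (up to 0.0589 and 0.0974), nor *Pgf* without replicate 2 of differentiating WT MSCs or either differentiating KO library (up to 0.125). With only the 4 differentiating libraries in the fit *Vegfa* (adjusted p = 0.062) and *Flt1* (0.0611) did not pass in limma, and *Pgf* did not with a pseudocount of 1 (0.0786). *Vegfb* (0.11, 95% interval −0.09 to 0.32), *Angptl2* (−0.08, −0.16 to −0.00092) and *Kdr* (−0.54, −1.03 to −0.06) did not pass after adjustment. With every library kept, *Kdr* passed in limma with a pseudocount of 1 (adjusted p = 0.0249) and without the variance trend (0.0476). *Kdr* passed without replicate 1 of differentiating KO MSCs (log2 fold change −0.74, limma adjusted p = 0.0341), and *Vegfb* without the same library (0.23, limma adjusted p = 0.028).

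Genes listed as markers of leukocytes, pericytes and smooth muscle also differed between the groups. Whether their RNA came from other cells or from the MSCs themselves was not tested. The summed level of 8 leukocyte markers was 19.2 to 19.9 RPKM in undifferentiated WT, 29.3 to 33.9 in differentiating WT, 7.82 to 8.41 in undifferentiated KO and 9.44 to 10.2 RPKM in differentiating KO MSCs, with *Lyz2* at 3.19 to 26.5 RPKM as the most abundant. *Ptprc*, which encodes CD45, was at most 0.127 RPKM and at 0 in 1 differentiating KO library. Of the 7 leukocyte markers tested, 4 were lower and 1 higher in undifferentiated KO MSCs and all 7 were lower in differentiating KO MSCs. Of all genes 17.5% were lower and 14.7% higher in undifferentiated KO MSCs, and 22.9% were lower in differentiating KO MSCs. Summed pericyte and smooth muscle markers, nearly all of it *Acta2*, were at 2076 to 2189 RPKM in undifferentiated WT, 393 to 446 in differentiating WT, 2245 to 2269 in undifferentiated KO and 150 to 217 RPKM in differentiating KO MSCs. Of the 5 pericyte markers tested, 2 rose and 3 fell with induction in each genotype. Of all genes 31.6% and 32.8% did so in WT and 36.4% and 36.6% in KO MSCs. *Rgs5* rose from a mean of 0.649 to 10.3 RPKM in WT and from 0.306 to 8.71 RPKM in KO MSCs. *Abcc9* rose from 0.199 to 0.348 and from 0.163 to 0.371 RPKM. Besides *Acta2*, *Cspg4* fell from 11.6 to 9.31 RPKM in WT and from 17.7 to 4.63 RPKM in KO MSCs. *Myh11* fell from 12.2 to 7.12 and from 14.3 to 4.46 RPKM. The part of these cells or markers in the genotype and induction differences of the 10 genes was not tested.

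The genotype difference itself changed with induction for 4 of the 10 genes, 2 upwards and 2 downwards in the interaction of genotype and induction, where 19.4% of all genes were called upwards and 20.0% downwards. With the 2-fold limit *Angptl4* alone remained, against 2.76% of all genes upwards and 3.42% downwards. For *Angptl4* the interaction was 1.71 on the log2 scale (SE 0.17, 95% interval 1.29 to 2.12, limma adjusted p = 0.00139), its KO to WT difference going from −0.78 before to 0.93 after induction. *Vegfa* also turned from lower to higher in KO, from −0.54 to 0.25 (interaction 0.79, SE 0.07, limma adjusted p = 0.0012).

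*Angptl1* went the other way, with an interaction of −0.96 (SE 0.18, limma adjusted p = 0.00872) and a smaller rise in KO. It passed the 2-fold limit without replicate 1 of differentiating KO MSCs (−1.02) or without replicate 2 of undifferentiated WT MSCs (−1.07). *Angptl2* had an interaction of −0.31 (SE 0.05, limma adjusted p = 0.00444), its KO to WT difference going from 0.23 before to −0.08 after induction. The remaining 6 did not pass, among them *Angpt2* (0.02, 95% interval −0.27 to 0.30), *Pgf* (0.05, −0.53 to 0.62) and *Vegfc* (0.24, −0.05 to 0.53). *Vegfb* passed without replicate 2 of differentiating KO MSCs (−0.47, limma adjusted p = 0.00992) and *Vegfc* without replicate 1 of undifferentiated WT MSCs (0.37, limma adjusted p = 0.0207). For *Flt1* (−0.51, −1.14 to 0.12) and *Kdr* (−0.49, −1.18 to 0.19) the intervals reached past 2-fold.

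**Figure D4:**
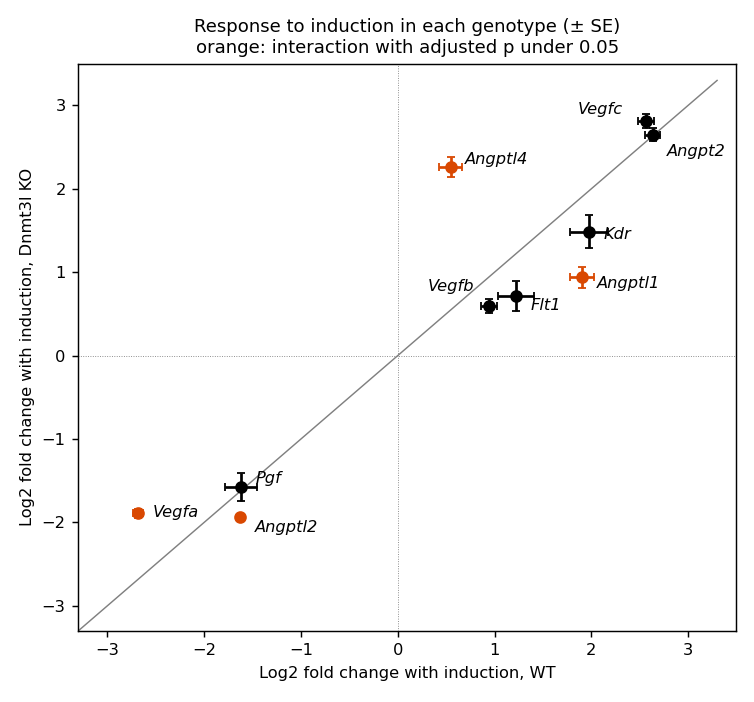
Log2 fold change with induction in WT MSCs (horizontal axis) against that in *Dnmt3l* KO MSCs (vertical axis) for the 10 genes, with bars of 1 SE; the diagonal marks equal responses and orange marks an interaction with adjusted p under 0.05. *Angptl4* lies farthest above the diagonal (0.55 in WT, 2.26 in KO), *Vegfa* lies above it, and *Angptl1* and *Angptl2* lie below it.

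Other ligands and receptors of the 2 families were read from a fixed list of 12 genes, of which 11 were tested. With induction 5 rose and 3 fell in each genotype, beside 31.6% and 32.8% of all genes in WT and 36.4% and 36.6% in KO MSCs. In KO against WT 2 were higher and 5 lower in undifferentiated MSCs (14.7% and 17.5% of all genes), and 5 higher and 3 lower in differentiating MSCs (17.8% and 22.9%). In the interaction 6 were upwards and 2 downwards (19.4% and 20.0%). Past 2-fold as well, 3 were upwards and 1 downwards, where 2.76% and 3.42% of all genes were. The median log2 fold change of the 7 ligands was 0.47 with induction in WT and 0.02 in KO MSCs, and that of the 4 receptors 0.42 and 0.48.

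*Angptl7*, an angiopoietin-like gene, was the single gene of the list past 2-fold between genotypes. WT libraries were at 0.864 and 1.19 RPKM before induction and at 29.7 and 29.5 RPKM after it. KO libraries were at 5.37 and 4.83 RPKM before and at 64.3 and 60.8 RPKM after induction. KO libraries were above WT libraries in both states (log2 fold change 2.22, SE 0.14, limma adjusted p = 0.000411 before; 1.08, SE 0.14, limma adjusted p = 0.00267 after). Its interaction was −1.14 (SE 0.19, limma adjusted p = 0.00634), opposite in sign to that of *Angptl4*.

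Among the other angiopoietin pathway genes, *Angpt1* and *Tek* shared an interaction of the same sign. *Angpt1*, the activating ligand, was at 9.58 and 8.69 RPKM in undifferentiated and 33.1 and 31.5 RPKM in differentiating WT MSCs, and at 5.01 and 4.79 RPKM and 38.3 and 41.5 RPKM in the KO groups (interaction 1.19, SE 0.09, limma adjusted p = 0.000786). *Tek*, the receptor, was at 0.583 and 0.686 RPKM and 2.35 and 1.93 RPKM in WT, and at 0.358 and 0.443 RPKM and 3.62 and 4.13 RPKM in KO MSCs (interaction 1.39, SE 0.21, limma adjusted p = 0.0043). Both were lower in KO before induction and higher after it, while *Angpt2* was higher in KO in both states. *Angpt1* exceeded *Angpt2* in RPKM in every library. *Angpt4*, a further angiopoietin of the list, was picked after its values were seen. Its mean went from 40.1 to 22.2 RPKM with induction in WT and from 20.6 to 16.0 RPKM in KO MSCs. It was thus lower in KO in both states, with an interaction of 0.49 (SE 0.07, limma adjusted p = 0.00314). *Angptl6* also had an upward interaction (1.01, SE 0.20, limma adjusted p = 0.0104), its mean falling from 2.44 to 0.960 RPKM in WT and going from 1.41 to 1.16 RPKM in KO MSCs.

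The neuropilins, picked after their values were seen, were far more abundant than *Flt1* and *Kdr*. The VEGF co-receptor *Nrp1* went with induction from a mean of 36.7 to 57.6 RPKM in WT and from 36.8 to 94.2 RPKM in KO MSCs. *Nrp2* went from 39.8 to 19.9 RPKM in WT and from 23.1 to 17.3 RPKM in KO MSCs. *Flt4*, the receptor of VEGFC and VEGFD and also picked after its values were seen, was at 0.239 to 0.376 RPKM over the 8 libraries. It was lower in KO MSCs after induction (log2 fold change −0.48, limma adjusted p = 0.0236), fell with induction in KO MSCs (−0.39, limma adjusted p = 0.0252) and had an interaction of −0.58 (limma adjusted p = 0.0398).

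Regulators of oxygen sensing, among them the factors that bind the hypoxia response element, were listed because *Vegfa* and *Angptl4* are known hypoxia targets. Of 8 genes all passed with induction in WT MSCs, 4 higher and 4 lower, and 5 in KO MSCs, 3 higher and 2 lower. Of all genes 31.6% and 32.8% were called so in WT and 36.4% and 36.6% in KO MSCs. *Epas1*, which encodes HIF2 alpha, rose most (log2 fold change 2.95 in WT, limma adjusted p = 2.54e-05; 2.80 in KO, 1.72e-05), and *Egln1*, a prolyl hydroxylase, fell past 2-fold in WT MSCs (−1.08, limma adjusted p = 4.9e-06); both were picked after their values were seen. The mean of *Epas1* went from 1.58 to 12.9 RPKM in WT and from 1.59 to 11.9 RPKM in KO MSCs. *Hif1a*, also picked after its values were seen, was more abundant and fell. Its mean went from 148.9 to 86.4 RPKM in WT (log2 fold change −0.78, limma adjusted p = 9.56e-06). In KO MSCs it went from 113.2 to 73.4 RPKM (−0.62, limma adjusted p = 1.3e-05). In KO against WT 3 of the 8 genes were lower and none higher before induction (17.5% of all genes were lower), and 3 lower and 1 higher after it (22.9% and 17.8%). The list moved both ways, and its median log2 fold change was −0.09 with induction in WT, −0.08 in KO MSCs and −0.07 for KO against WT in undifferentiated MSCs. None was past 2-fold between genotypes or in the interaction. Oxygen was not varied in the study.

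Of 7 listed genes for secreted inhibitors of angiogenesis, 2 rose and 3 fell in WT and 3 rose and 3 fell in KO MSCs with induction, near the shares of all genes (31.6% and 32.8% in WT, 36.4% and 36.6% in KO). Past 2-fold as well, 2 rose and 2 fell in WT (9.69% and 4.63% of all genes), and 3 rose and 1 fell in KO MSCs (13.0% and 9.87%). In KO against WT 4 were lower before induction (17.5% of all genes), and 1 was higher and 2 were lower after it (17.8% and 22.9%). In the interaction 5 were upwards and 0 downwards (19.4% and 20.0%). Those counts include *Thbs1*, which encodes thrombospondin and was listed at 0 in 6 libraries and at 1029 and 970.3 RPKM in the differentiating KO libraries. A 0 beside such values can be a failed estimate, and 50 genes of the table were listed at 0 in both libraries of a group and at 20 RPKM or more in both libraries of another. None of the 10 genes was listed at 0 in any library, and leaving those 50 genes out of the fit changed no call of theirs.

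The genes whose pattern over the 8 libraries was most like each of the 10 were sought among the 12262 other genes that averaged 1 RPKM or more. *Vegfa* was most like *Ptprk* (Pearson r = 0.999) and *Fyn* (0.998), and *Vegfc* most like *Cebpa* (0.9998) and *Map3k6* (0.999). *Angpt2* was most like *Rhoj* (0.9997) and *Sox5* (0.999), *Angptl2* like *Mllt11* (0.9998) and *Ajuba* (0.999), and *Angptl4* like *Gm14403* (0.997) and *Zfand5* (0.996). For *Vegfb* these were *Anxa11* and *Rom1*, for *Pgf* *Cnih2* and *Snap47*, for *Angptl1* *Rab15* and *Abcc3*, for *Flt1* *Cryl1* and *Lfng*, and for *Kdr* *Dhrs9* and *P2rx5*. Among the 10 genes the closest pair was *Vegfc* and *Angpt2* (0.992) and the most opposed was *Vegfc* and *Angptl2* (−0.986), while *Flt1* and *Kdr* reached 0.937. These values describe 8 libraries that fall into 4 groups of replicates and share libraries and scaling, so that any 2 genes that follow the groups correlate closely.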

How the data were processed

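RNA was depleted of ribosomal RNA and sequenced from stranded total RNA libraries. Per the labels and the methods, the authors aligned reads to mm10 with TopHat2 2.1.0 and used Cufflinks 2.2.1 and Cuffdiff for gene values; the library normalization of Cuffdiff is not given in the sources used here. The authors deposited RPKM per gene for each of the 8 libraries, without pooling, and each column was matched to its sample by title (0 columns were left unused). The table holds no counts, and in 3383 low values only 66.1% fell on a whole number of reads (within 0.05 of a read; chance gives 10%), so that counts could not be recovered, no count model was run and depth is approximate.

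Genes averaging 0.1 RPKM or more were tested on log2(RPKM + 0.1), which understates changes of low genes, with limma (version 3.58.1, R 4.3.3), using a mean per group and a variance trend. All 8 libraries entered a single fit with a common spread, which had 4 residual degrees of freedom and 1.98 from the prior. P-values were adjusted over the 15342 tested genes (Benjamini-Hochberg); the further limit was an absolute log2 fold change above 1, as in the study. Intervals are 95%. The fit was also run on simulated data with normal noise on the log2 scale, which checks the code and not the calls made here. The members and lists were chosen with earlier results of these data known. The genes named were all 10 members, listed genes past both limits in a genotype comparison or the interaction, of the other pathway genes the 4 with the largest induction change past both limits (*Angptl7*, *Vegfd*, *Angpt1*, *Tek*), and the 2 genes most correlated with each member. *Nrp1*, *Nrp2*, *Flt4*, *Angpt4*, *Epas1*, *Hif1a*, *Egln1* and the named cell type markers were chosen after their values were seen. Cell type markers past the limits are given by summed level. Alternatives covered the pseudocount, filter, normalization, variance trend, replicate block, fold limit, the libraries in the fit, and each library left out. In addition, genes listed at 0 were left out, an alternative chosen after seeing the data. Tables were handled in Python 3.11.15 with pandas 2.3.3.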

Additional observations from a re-analysis of the deposited data

Results flagged for a closer look

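The KO to WT difference changed with induction for 4 of the 10 genes, by the limma test of the interaction on log2(RPKM + 0.1). Of the 10, 2 went upwards and 2 downwards, near the shares of all genes (19.4% and 20.0%). The difference rose by 1.71 for *Angptl4* and by 0.79 for *Vegfa*. Both were lower in KO before induction in 2 of 2 libraries and higher after it in 2 of 2. The *Vegfa* difference after induction (0.25) did not pass in limma with only the differentiating libraries in the fit (adjusted p = 0.062). For *Angptl1* the change was −0.96, with KO and WT libraries overlapping before induction and both KO libraries lower after it. The change for *Angptl2* was −0.31, the smallest of the 4, with both KO libraries higher before and lower after induction, the latter difference not passing the adjusted p.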

How the results depend on the processing

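Of 50 log2 fold changes (10 genes in 5 comparisons), 33 kept their direction and side of the adjusted p limit in every alternative, and of 875 alternative values 833 did. A further 23 lost the limit, 7 gained it and 12 turned sign, all 12 of values that had not passed. Without the fold limit, 6 of the 10 genes were called between genotypes in undifferentiated MSCs in place of 0, 7 in place of 0 in differentiating MSCs, and 4 in place of 1 in the interaction. For induction in WT MSCs 5 genes in place of 8 passed with a minimum of 0.5 RPKM (where *Angptl1*, *Flt1* and *Kdr* were not tested) and 5 with a pseudocount of 1; in KO MSCs 9 in place of 7 passed with a pseudocount of 0.01 and 5 with 1. In the interaction 2 passed with a pseudocount of 0.01. With each library left out in turn the count in differentiating MSCs ran from 0 to 1 and in the interaction from 1 to 2. Among all genes, called genes numbered 4943, 402 and 99 in place of 261 in undifferentiated MSCs (no fold limit, pseudocounts 0.01 and 1), 6251 and 234 in place of 507 in differentiating MSCs (no fold limit, pseudocount 1), 9882 and 1249 in place of 2198 and 11186 and 2267 in place of 3511 for induction in WT and KO, and 6048 and 479 in place of 947 in the interaction; the cause of the changes with the pseudocount was not tested.

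Signs turned with a library left out for *Angptl1* (−0.0032 to 0.22) and *Kdr* (−0.19 to 0.093) between genotypes in undifferentiated MSCs, for *Vegfb* in differentiating MSCs (−0.011 to 0.23), and for the interactions of *Pgf* (−0.18 to 0.27) and *Angpt2* (−0.087 to 0.12). The *Pgf* interaction was also −0.0072 with a pseudocount of 0.01 and −0.014 after quantile normalization, and that of *Angpt2* was −0.058 with a pseudocount of 0.01. A group left with 1 library was assumed to vary like the others. The replicate block changed no call of the 10 genes (0, 0, 8, 7 and 1 past both limits in the 5 comparisons). For the *Vegfa* difference in undifferentiated MSCs it gave −0.54 with a limma adjusted p of 0.00378. Deviations of same-numbered libraries correlated at −0.0924 to 0.0304, so no shift shared by same-numbered libraries was seen. Such values cannot tell a pairing with a small effect from no pairing. Low levels of *Kdr*, *Flt1* and *Angptl1* limit what can be resolved for them.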
